A study of Mus musculus with 4 samples.

Results

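The genes described here are the interleukin-10 (IL-10) family genes of mouse chromosome 1, their neighbour Mapkapk2, and the genes of the IL-10 receptor chains. They were picked by symbol (Il10, Il24, Il19, Il20, Mapkapk2, Il10ra and Il10rb), a rule that uses no measured value but was written with earlier results of these data known, and make up 7 of the 23283 gene symbols measured. RNA sequencing was done on Th2 cells that were cultured from CD4 T cells of the spleen of C57BL/6 mice, with the aim of assessing what Menin does. Menin belongs to Trithorax group complexes, chromatin regulators that help to keep genes active. The 4 groups were wild type (WT) and Menin knockout (KO) cells, each taken at 5 days and from a longer culture named as 3 weeks, and each group held 1 library.

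All 4 groups were first stimulated for 5 days in IL-2 (15 ng/ml) plus IL-4 (10 ng/ml). Cells of the longer culture then spent 2 days without cytokines and 5 days on immobilized anti-TCR antibody with IL-2 and anti-IL-4, steps that add up to less than the time in the name. The sources used here do not give the way Menin was deleted, the age of the mice or the number of mice behind each library. With 1 library per group there is no replicate error and no difference could be tested. The intervals given are 95% counting intervals from the reads that each value implies. They cover counting error only, not variation between cultures or mice.

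IL-10 is a secreted cytokine that restrains inflammation, and Th2 cells are among the T cells that make it. IL-19, IL-20 and IL-24 are related cytokines from the same gene cluster that act mainly on epithelial cells through receptors built from the IL-20 receptor chains. IL-10 itself binds IL-10RA, its private chain, together with IL-10RB, a chain shared with other cytokines of the family. The bound receptor activates the kinases JAK1 and TYK2 and, through them, the transcription factor STAT3. Mapkapk2 encodes MK2, a kinase downstream of p38 that raises the stability of cytokine mRNAs with AU-rich elements by acting on the mRNA decay factor tristetraprolin (Zfp36).

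In GRCm38 with the GENCODE M21 annotation, Il24 lies at chromosome 1, 130882074 to 130887454, Il20 at 130906985 to 130911451 and Il19 at 130932656 to 130940115, all on the minus strand. Il10 follows on the plus strand at 131019845 to 131024974, and Mapkapk2 on the minus strand at 131053700 to 131097826. Il10ra lies on chromosome 9 at 45253837 to 45269149, minus strand, and Il10rb on chromosome 16 at 91406164 to 91425834, plus strand. Il10rb overlaps the annotated coding gene Gm21970 on the same strand, so reads of the shared exons cannot be told apart. Mapkapk2 and Il10ra overlap only short or non-coding gene models in that annotation.

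The AU-rich motif ATTTA, the element that decay factors such as tristetraprolin read, was counted on the sense strand of the mRNA in the first 300 bases after the stop codon. Il10 held 5 matches, a number reached by 0.228% of 14940 genes with that much sequence, and Il24 held 3, a number reached by 2.84%. Il20 and Il10rb held 1 each, where 32.2% of genes hold 1 or more, and Il19, Mapkapk2 and Il10ra held 0. Over the whole sequence after the stop codon the order was different. Il20 had the most per kb at 11.6, then Il24 at 10.5, Il10 at 8.5 and Il10rb at 5.63. Il19 had 2.04, Il10ra 1.77 and Mapkapk2 0.718, where the median of the 14940 genes was 1.5 per kb. The windows below show the motif in capitals for both cytokine genes that the results turn on, as DNA letters of the GENCODE M21 transcripts, bases 213 to 242 after the stop codon of Il10 and 195 to 224 after that of Il24. A match is a description of the sequence and no measure of decay.
Il10: taattttacagtATTTAttatttttaacct
Il24: gtagatttgcatATTTAttacagccctatt

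Promoter sequence from RefSeq (GRCm38.p6) was matched for 3 of the 7 genes, Il19, Il20 and Mapkapk2. The 250 bases before the start of Mapkapk2, the most evenly read gene of the cluster, and of Il19, which was barely read, are shown because they differ in CpG content, with each CpG in capitals. The Mapkapk2 window, chr1:131097844-131098093 on the minus strand, has 60.4% GC and 9 CpG. The Il19 window, chr1:130940116-130940365 on the minus strand, has 42% GC and 1 CpG. The Il20 window, not printed, has 52.8% GC and 2 CpG. A link between these contents and the levels was not tested. Over 32851 such windows the median was 52.4% GC and 6 CpG, and 59.7% of windows held fewer CpG than Mapkapk2 against 7.87% that held fewer than Il19.
Mapkapk2: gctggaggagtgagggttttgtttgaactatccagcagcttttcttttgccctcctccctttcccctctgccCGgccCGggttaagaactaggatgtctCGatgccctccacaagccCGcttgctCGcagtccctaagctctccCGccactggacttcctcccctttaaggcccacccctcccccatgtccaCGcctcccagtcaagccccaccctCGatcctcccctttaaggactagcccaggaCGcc
Il19: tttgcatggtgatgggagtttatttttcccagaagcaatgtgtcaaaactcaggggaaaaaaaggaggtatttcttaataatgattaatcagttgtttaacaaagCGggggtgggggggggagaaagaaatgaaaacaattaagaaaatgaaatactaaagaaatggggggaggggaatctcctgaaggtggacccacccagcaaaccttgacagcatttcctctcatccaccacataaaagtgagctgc

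Men1, which encodes Menin, was read first as a check of the labels. Levels are given as FPKM, read fragments per length of transcript and per depth of the library. Men1 was at 32.8 FPKM in WT and 10.3 in KO cells at 5 days, and at 25.4 in WT and 5.88 in KO cells at 3 weeks. Levels given below as 4 values without group names follow this order. Both KO libraries were below both WT libraries for Men1, at 31.5% of WT at 5 days and 23.1% at 3 weeks. The depth inferred from the values was 20.7 to 23.6 M reads a library. All 8 T cell markers were measured, with a summed level of 1600 to 2425 FPKM. The B cell marker sum stayed between 0.177 and 2.97 FPKM, with Pax5 at 0 in all 4 libraries. In bulk RNA, fewer cells that express a gene and less of its RNA per cell cannot be told apart.

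Il10 and Il24 were the cytokines of the cluster that were read well, and both had their highest level in WT cells after the longer culture. Menin KO cells of the longer culture had 62.4% of the WT level of Il10 but only 9.21% of the WT level of Il24. At 5 days the KO library was above WT for Il10 and below it for Il24. Il19 was near the limit of reading and Il20 was listed at 0 in 3 libraries.

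The Il10 level was 22.3 FPKM in WT and 32.0 in KO cells at 5 days, and 108 in WT and 67.2 in KO cells at 3 weeks. Both 3-week libraries were above both 5-day libraries, whatever the genotype. The KO to WT ratio of FPKM was 1.43 at 5 days (1.28 to 1.61) and 0.624 at 3 weeks (0.586 to 0.663). On the log2(FPKM + 1) scale, which understates differences of low values, these are 0.50 and -0.67, both short of a 2-fold difference (a log2 ratio of 1). From 5 days to 3 weeks the WT level was 4.82-fold higher (4.39 to 5.31) and the KO level 2.10-fold higher (1.93 to 2.28).

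The Il24 level was 11.6 FPKM in WT and 7.50 in KO cells at 5 days, and 101 in WT and 9.31 in KO cells at 3 weeks. A single library, WT 3-week, stood high, and the other 3 lay within 7.50 to 11.6 FPKM. The KO 3-week library implied 193 reads of Il24 against 2288 in WT 3-week, a level 10.9-fold lower (log2 ratio -3.31), the 44th lowest of the 10973 symbols compared. Between the times, the level was 8.73-fold higher in WT (7.62 to 10.0) and 1.24-fold higher in KO (1.00 to 1.54). The WT value was the 37th highest and that of Il10 the 62nd highest of all compared symbols.

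Because both genes are read per length in the same library, their levels can be set against each other. Il24 reached 0.519 of the Il10 level in WT 5-day (0.442 to 0.607), 0.234 in KO 5-day (0.197 to 0.277), 0.938 in WT 3-week (0.888 to 0.992) and 0.139 in KO 3-week (0.119 to 0.161). It was nearly as abundant as Il10 in the WT longer culture, and well below it in both KO libraries. The summed FPKM of Il10, Il24, Il19 and Il20 was 35.2, 40.0, 209 and 76.6 in the same order. Il10 made up 63.5% and 80.1% of that sum in WT and KO at 5 days, and 51.5% and 87.7% at 3 weeks.

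Il19 stood at 1.28 FPKM in WT and 0.482 in KO cells at 5 days, and 0.257 in WT and 0.113 in KO cells at 3 weeks. These levels imply 21.8, 8.94, 4.99 and 2 reads. WT 5-day was the highest, a different order from Il10 and Il24, and the KO to WT ratio there was 0.375 (0.152 to 0.851). At 3 weeks the ratio had a counting interval of 0.0416 to 2.68, so no difference was detectable at this depth. Il20 was listed at 0 in both 5-day libraries and in KO 3-week, and at 0.204 FPKM (4.75 reads) in WT 3-week, close to the 0.129 FPKM that 3 reads are worth there. Its mean and that of Il19 were under 1 FPKM, so with this filter they were not among the compared genes.

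Other ligands of the family were at or next to the floor. Il22, Iltifb and Il28b were listed at 0 in all 4 libraries, and Il28a at 0.122 FPKM in KO 3-week alone. Il22 and Iltifb, and Il28a and Il28b, are near-identical copies whose reads could have been split or dropped, so their levels are uncertain.

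**Figure D1:**
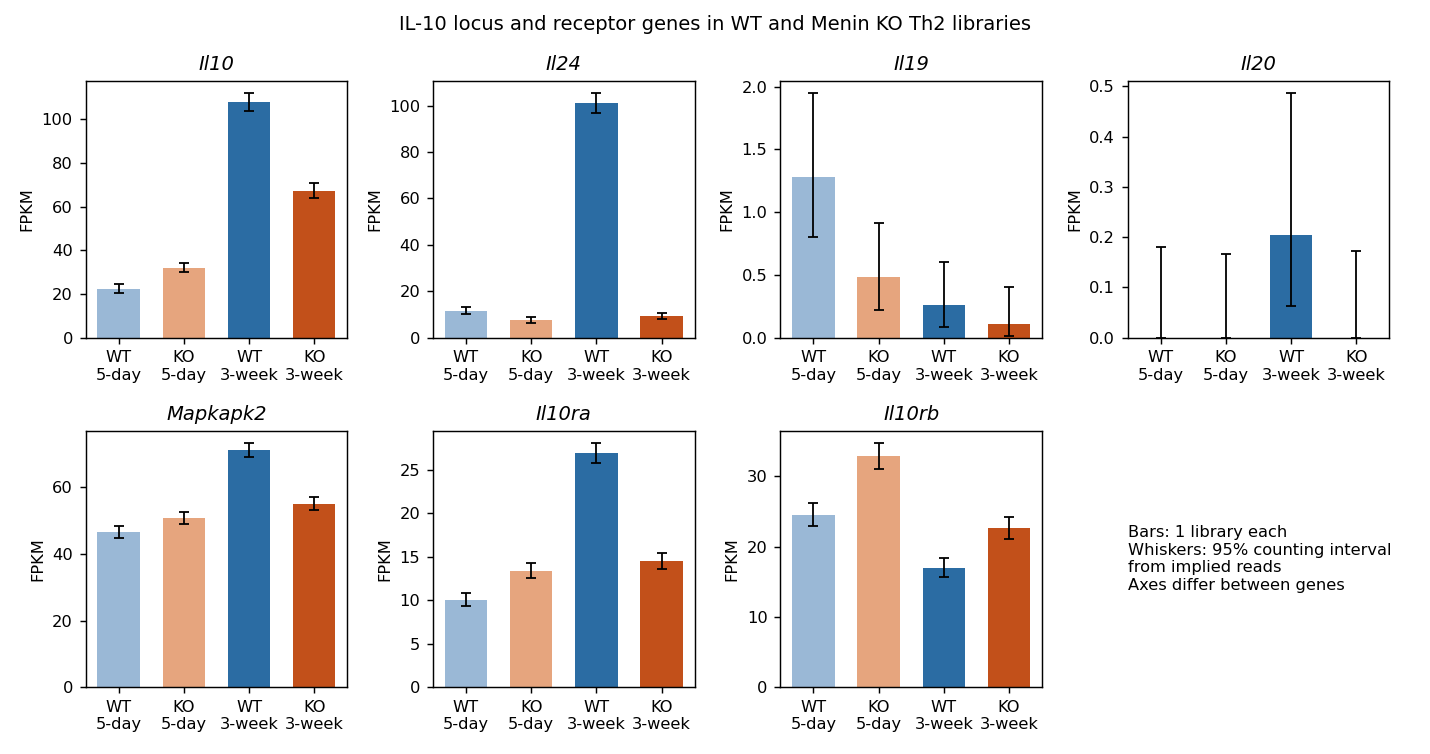
Level in FPKM (linear axis from 0, scaled per gene) of the 7 genes in the 4 libraries, 1 bar per library; whiskers are 95% counting intervals from the implied reads. Il10, Il24, Mapkapk2 and Il10ra are highest in WT 3-week, Il24 at 101 FPKM against 7.50 to 11.6 elsewhere, while Il10rb is lowest there at 17.0 FPKM.

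Mapkapk2, next to Il10 on the chromosome, was read at a high level in all 4 libraries. It stood at 46.6 FPKM in WT and 50.7 in KO cells at 5 days, and 71.1 in WT and 55.0 in KO cells at 3 weeks. WT 3-week was again the highest library, but the whole range spanned much less than for Il10 or Il24. The KO to WT ratio was 1.09 at 5 days (1.03 to 1.15) and 0.774 at 3 weeks (0.739 to 0.810). Mapkapk3, which encodes the related kinase MK3, had levels of 39.6 (WT) and 39.8 (KO) FPKM at 5 days and 61.4 (WT) and 59.5 (KO) at 3 weeks. Mapkapk2 was 1.16 times Mapkapk3 in WT 3-week (1.11 to 1.21) and 0.924 times in KO 3-week (0.880 to 0.971).

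The chains of the IL-10 receptor differed in their pattern over the libraries. Il10ra stood at 10.1 FPKM in WT and 13.4 in KO cells at 5 days, and 26.9 in WT and 14.5 in KO cells at 3 weeks. It was highest in WT 3-week, and the other 3 libraries lay close to each other. The KO to WT ratio was 1.33 at 5 days (1.21 to 1.47) and 0.540 at 3 weeks (0.501 to 0.582, log2 ratio -0.85). Between the times Il10ra was 2.68-fold higher in WT (2.45 to 2.92) and 1.09-fold higher in KO, with an interval that includes 1 (0.994 to 1.18).

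Il10rb stood at 24.5 FPKM in WT and 32.8 in KO cells at 5 days, and 17.0 in WT and 22.6 in KO cells at 3 weeks. It was higher in KO than in WT at both times and lower at 3 weeks than at 5 days in both genotypes. The KO to WT ratio was 1.34 at 5 days (1.23 to 1.46) and 1.33 at 3 weeks (1.20 to 1.48). The private chain was 0.410 of the shared chain in WT and 0.408 in KO cells at 5 days. At 3 weeks it was 1.58 in WT (1.45 to 1.73) and 0.643 in KO cells (0.586 to 0.706). Only in the WT 3-week library was Il10ra the more abundant of the pair.

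The counts of these genes can be read against those of all symbols compared (a mean of at least 1 FPKM over the 4 libraries), 5 of the 7 genes and 10973 in all. At 5 days 0 of 5 were at least 2-fold apart between KO and WT, against 3.59% of all symbols (2.77% higher and 0.82% lower in KO). At 3 weeks it was 1 of 5, Il24, lower in KO, against 16.2% of all symbols (7.97% higher and 8.19% lower). In WT, 3 of 5 were at least 2-fold higher at 3 weeks than at 5 days, Il10, Il24 and Il10ra, where 5.86% of all symbols were apart and 3.03% higher. In KO 1 of 5 was, Il10, where 8.74% were apart and 4.35% higher, with Il10 just past the threshold at a log2 ratio of 1.04 (0.96 with a pseudocount of 5 in place of 1).

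The KO to WT log2 ratio at 3 weeks minus that at 5 days was -2.74 for Il24, -1.23 for Il10ra, -1.18 for Il10, -0.48 for Mapkapk2 and -0.02 for Il10rb. Counted at 4-fold (a size of 2), 1 of 5 genes was apart, Il24, against 2.04% of all symbols and 0.784% in that direction. Over all symbols the median was -0.08 and 57.4% lay below 0. The Il10rb value changed sign with the scaling (0.04 by median of ratios, 0.07 by upper quartile). The differences could not be tested with 1 library per group.

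**Figure D2:**
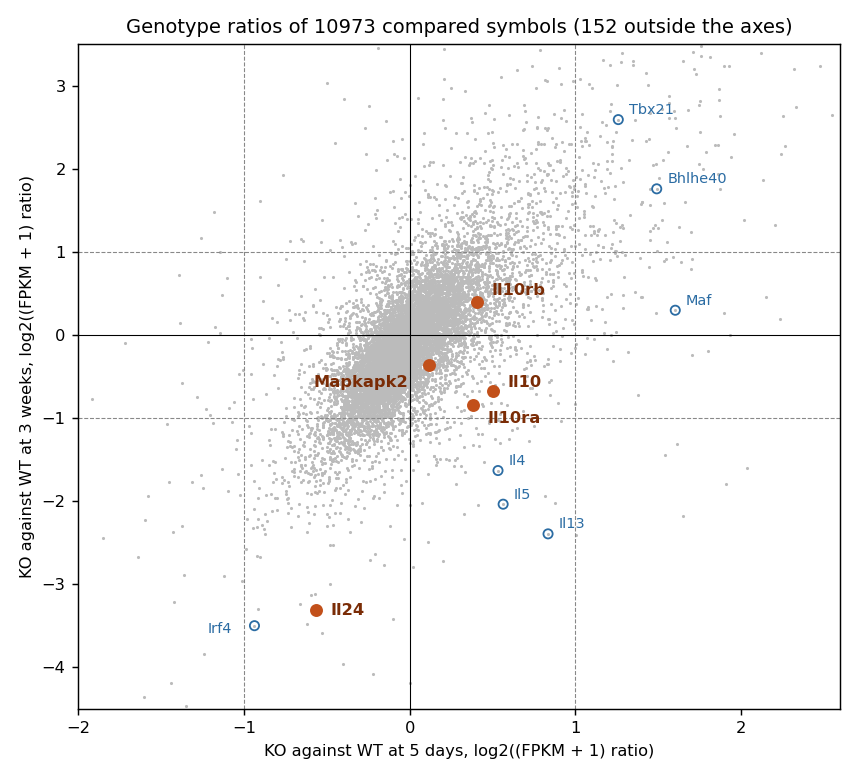
KO against WT log2((FPKM + 1) ratio) at 5 days (horizontal) and at 3 weeks (vertical) for 10973 compared symbols (grey points, 152 outside the axes), with 5 of the genes in orange and other named genes as blue circles; dashed lines mark 2-fold. Il10 and Il10ra lie right of 0 and below 0, Il10rb above 0 on both axes and Il24 far below the lower dashed line at -3.31.

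The genes around Il10 were read in the same libraries. Of the genes that lie at least partly within 500 kb of Il10, 10 others were compared, Il24 and Mapkapk2 among them. At 5 days 0 of them were at least 2-fold apart between genotypes, against 3.59% of all symbols, with a median log2 ratio of -0.09. At 3 weeks 0 were higher in KO, against 7.97% of all symbols, and 2 lower, Il24 itself and Dyrk3, against 8.19%. The median, which includes Il24, was -0.43 against -0.08 over all symbols. Dyrk3, which encodes a protein kinase, stood at 6.07 FPKM in WT and 3.95 in KO cells at 5 days, and 7.25 in WT and 1.61 in KO cells at 3 weeks (log2 ratio at 3 weeks -1.66, or -0.89 with a pseudocount of 5).

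The nearest compared gene on the far side of Il24 was Fcmr (Faim3 in the files), which encodes a receptor for IgM, with 6.95, 4.40, 7.08 and 3.23 FPKM. Its 3-week log2 ratio was -0.93 and that of Eif2d, a translation initiation factor gene, -0.91, both short of 2-fold. Ikbke, a kinase gene, and Pfkfb2, a glycolysis enzyme gene, had 3-week log2 ratios above 0, at 0.41 and 0.59. The genes of the region thus did not share 1 direction. Within 500 kb of Il10ra, 12 genes were compared and at 3 weeks 3 were at least 2-fold higher in KO and 0 lower, against 7.97% and 8.19% of all symbols. These were Cd3g, a chain of the T cell receptor complex (log2 ratio 1.40), Amica1 (1.71) and Scn4b (2.01), of which Amica1 (0.67) and Scn4b (0.84) fell short of 2-fold with a pseudocount of 5. Within 500 kb of Il10rb, 14 genes were compared. At 5 days 1 was at least 2-fold higher in KO, Itsn1 (1.75), against 2.77% of all symbols, and 0 lower, against 0.82%. At 3 weeks 1 was higher, again Itsn1 (2.06), against 7.97% of all symbols, and 2 lower, against 8.19%. The lower genes were Gart (-1.82) and 4932438H23Rik (-1.06). The last fell short with a pseudocount of 5 (-0.75) and with upper-quartile scaling (-0.96).

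**Figure D3:**
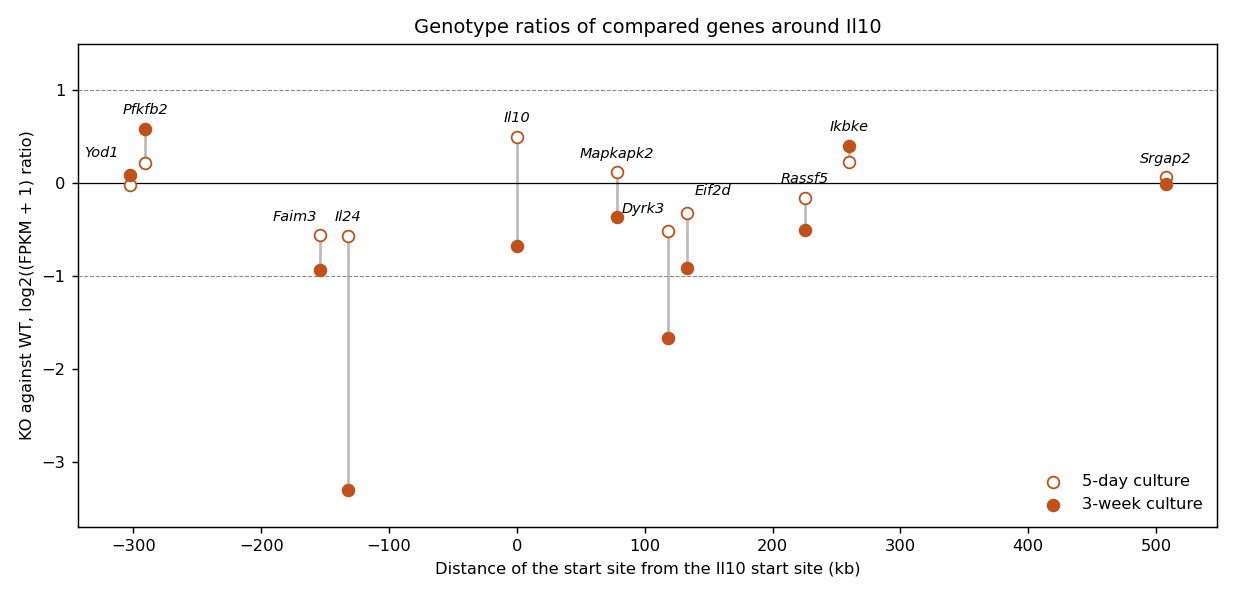
KO against WT log2((FPKM + 1) ratio) of Il10 and the 10 compared genes within 500 kb, by distance of the start site from that of Il10 in kb; open circles are the 5-day and filled circles the 3-week culture, 1 library per genotype each, dashed lines 2-fold. Il24 at -3.31 and Dyrk3 at -1.66 are the points below the lower dashed line, both at 3 weeks.

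Receptors that share chains with IL-10RB, or belong to the same class II family, were given from a list of 11 genes. Of these 7 were compared, Il10ra and Il10rb among them. At 5 days 0 of 7 were at least 2-fold apart, against 3.59% of all symbols, and at 3 weeks 1 was higher in KO, against 7.97%, and 0 lower. That gene was Ifngr1, the ligand-binding chain of the interferon-gamma receptor, at 62.5 FPKM in WT and 125 in KO cells at 5 days, and 48.2 in WT and 178 in KO cells at 3 weeks. The KO libraries were the higher at both times, with log2 ratios of 0.99 and 1.87. With upper-quartile scaling the 5-day value was 1.01, past 2-fold. Ifngr2, its signalling chain and a neighbour of Il10rb, had levels of 11.8, 11.7, 5.67 and 2.52 FPKM and a 3-week log2 ratio of -0.92.

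The chains that bind IL-19, IL-20 and IL-24 were scarcely read. Il20rb stood at 1.40 to 1.70 FPKM over the 4 libraries, Il20ra at no more than 0.210 FPKM and Il22ra1 at no more than 0.00274 FPKM. Il22ra2, the decoy receptor of IL-22, was listed at 0 in all 4. The levels of Il24 were thus read in cells with little RNA for the receptor chains of IL-24.

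Of 12 genes for signalling from the IL-10 receptor, all compared, 0 were at least 2-fold apart at 5 days, against 3.59% of all symbols. At 3 weeks 0 were higher in KO, against 7.97% of all symbols, and 1 lower, against 8.19%. It was Stat5b (log2 ratio -1.17, or -0.96 with a pseudocount of 5). Stat3, the main transcription factor of the pathway, stood at 33.9 FPKM in WT and 32.0 in KO cells at 5 days, and 50.3 in WT and 50.9 in KO cells at 3 weeks. Its KO to WT ratio was 0.945 at 5 days (0.905 to 0.986) and 1.01 at 3 weeks (0.977 to 1.05). The kinase genes Jak1 and Tyk2 had 3-week ratios of 1.42 and 1.44.

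The feedback inhibitors differed from each other. Socs1 stood at 32.0, 36.0, 125 and 94.2 FPKM, and Cish at 35.8, 49.7, 135 and 110 FPKM, in the library order used above. Both followed the order of Il10 over the libraries. Socs3, the inhibitor best known as a target of STAT3, stood at 8.42, 13.2, 13.1 and 15.5 FPKM and was lowest in WT 5-day. Of 10 listed genes that IL-10 induces in other cells, 9 were compared. At 5 days 0 of 9 were at least 2-fold apart between KO and WT, against 3.59% of all symbols. At 3 weeks 0 were lower in KO, against 8.19% of all symbols, and 1 higher, Bcl6, against 7.97%. Bcl6 was at 0.794 FPKM in WT 3-week and 5.87 in KO 3-week. Bcl6 encodes the transcriptional repressor that directs follicular helper T cells. Its 3-week log2 ratio was 1.94, or 0.91 with a pseudocount of 5, and the median of the 9 was 0.25.

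Of 24 listed genes of the p38 and MK2 pathway, 21 were compared. At 5 days 0 of 21 were at least 2-fold apart, against 3.59% of all symbols. At 3 weeks 0 were higher in KO, against 7.97% of all symbols, and 2 lower, against 8.19%. These were Mapk11 and Mapk12, which encode p38 beta and p38 gamma, the latter with a log2 ratio of -1.45 that became -0.60 with a pseudocount of 5. Mapk11 stood at 13.1 FPKM in WT and 11.3 in KO cells at 5 days, and 11.2 in WT and 2.64 in KO cells at 3 weeks. Mapk14, which encodes p38 alpha, was the most abundant p38 gene and stood at 41.3, 44.1, 27.6 and 48.3 FPKM. It was higher in KO than WT at 3 weeks by a log2 ratio of 0.78, opposite to Mapk11 at -1.74. Zfp36 (tristetraprolin) stood at 32.0, 24.5, 19.1 and 20.6 FPKM, with a 3-week ratio of 1.08 that includes 1 in its interval (0.995 to 1.17).

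Transcription factors known to act on Il10 were read from a list of 36 genes, of which 34 were compared. At 5 days 6 of 34 were at least 2-fold higher in KO, against 2.77% of all symbols, and 0 lower. At 3 weeks 5 were higher and 2 lower, against 7.97% and 8.19% of all symbols. The medians, -0.05 and -0.08, were near those of all symbols, -0.02 and -0.08. Maf, an activator of Il10 in several helper T cell types, stood at 13.7 FPKM in WT and 43.7 in KO cells at 5 days, and 37.5 in WT and 46.3 in KO cells at 3 weeks. WT 5-day was the low library, as for Il10, and the KO to WT ratio was 3.19 at 5 days (3.02 to 3.36) and 1.23 at 3 weeks (1.19 to 1.28).

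Bhlhe40, a repressor of Il10 in T cells, stood at 23.2 FPKM in WT and 67.0 in KO cells at 5 days, and 36.1 in WT and 124 in KO cells at 3 weeks. It was higher in KO at both times, with log2 ratios of 1.49 and 1.76. Irf4, a transcription factor that Th2 cells need, stood at 37.4 FPKM in WT and 19.1 in KO cells at 5 days, and 67.9 in WT and 5.09 in KO cells at 3 weeks. Its 3-week log2 ratio of -3.50 was the lowest of the list. Batf, which binds DNA together with IRF4, stood at 61.0, 83.3, 109 and 59.8 FPKM, above WT at 5 days and below it at 3 weeks, as Il10 was.

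Tbx21 and Eomes, which direct interferon-gamma producing T cells, were higher in KO at both times. Tbx21 stood at 8.08, 20.7, 6.68 and 45.3 FPKM, and Eomes at 1.80, 8.42, 0.360 and 6.36 FPKM. Jun had log2 ratios of 1.22 and 2.27. Fosl2 at 1.15 at 5 days and Stat4 at 1.01 at 3 weeks complete these counts and were named after their values were seen. With a pseudocount of 5, the 5-day log2 ratios of Tbx21 (0.98), Eomes (0.98), Jun (0.71) and Fosl2 (0.79) and the 3-week ratio of Stat4 (0.82) fell short of 2-fold. Gata3, the Th2 master regulator, stood at 72.8 FPKM in WT and 69.8 in KO cells at 5 days, and 93.8 in WT and 45.9 in KO cells at 3 weeks. Its 3-week log2 ratio of -1.02 lay at the threshold and missed it with another scaling of the libraries (-0.96 by median of ratios, -0.90 by upper quartile). Prdm1, which encodes Blimp-1, had a 3-week log2 ratio of -0.99.

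**Figure D4:**
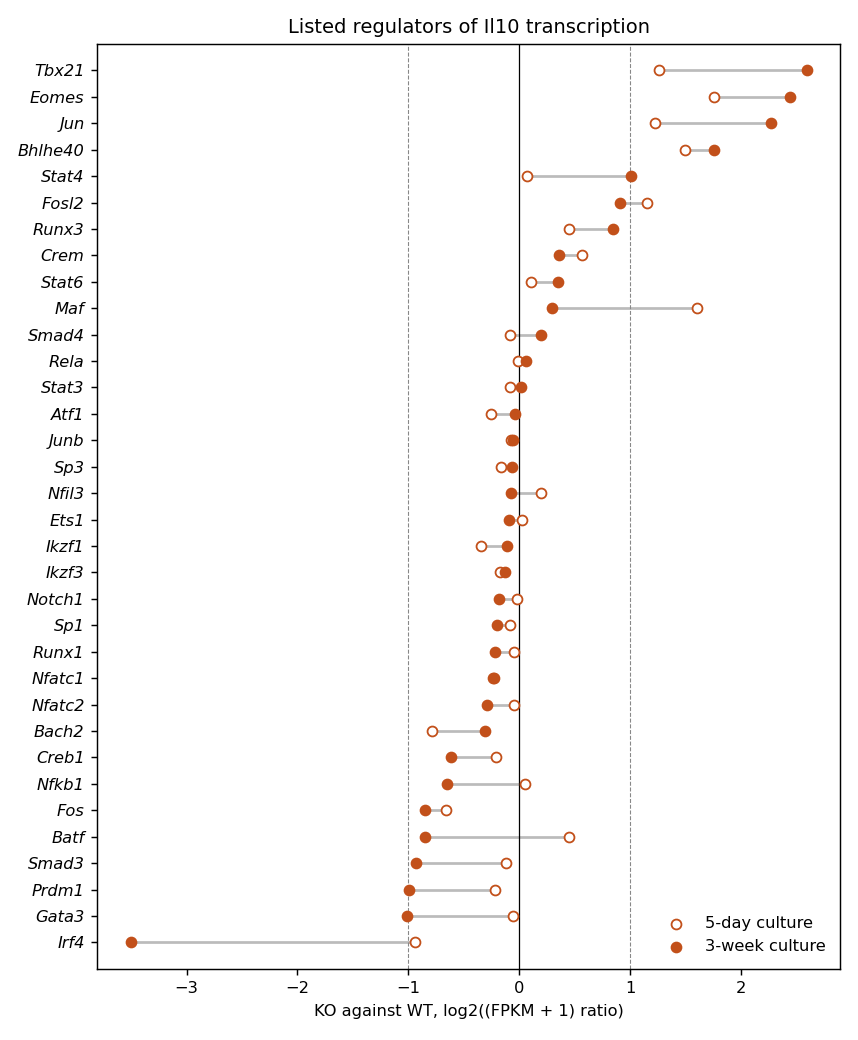
KO against WT log2((FPKM + 1) ratio) of the 34 compared regulators of Il10 transcription, ordered by the 3-week value; open circles are the 5-day and filled circles the 3-week culture, 1 library per genotype each, dashed lines 2-fold. Maf lies at 1.60 at 5 days and 0.30 at 3 weeks, and Irf4 at -3.50 at 3 weeks lies far from the other regulators.

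Il10 was set beside the Th2 cytokines Il4, Il5 and Il13, whose KO to WT ratios at 3 weeks were 0.291, 0.236 and 0.182 against 0.624 for Il10. Within a library the Il10 level was 13.8 times that of Il13 in WT 5-day, 8.71 times in KO 5-day, 1.03 times in WT 3-week and 3.52 times in KO 3-week. Against Il4 the values were 3.49, 3.30, 4.91 and 10.5 in the same order, and against Il5 23.0, 16.8, 1.13 and 3.00. At 5 days the counting intervals of WT and KO overlapped for each. They were 9.72 to 20.1 and 6.95 to 11.1 for Il13, and 2.62 to 4.74 and 2.64 to 4.17 for Il4. For Il5 they were 15.6 to 35.3 and 12.8 to 22.3. Relative to all 3 of these cytokines, Il10 was thus higher in KO than in WT at 3 weeks. Of 10 listed Th2 cytokine genes 6 were compared. At 5 days 0 of 6 reached a 2-fold difference, against 3.59% of all symbols. All 6 lay above 0, with a median log2 ratio of 0.52, where the median of all symbols was -0.02. At 3 weeks 5 of 6 were at least 2-fold lower in KO, against 8.19% of all symbols, with a median of -1.84 against -0.08 over all symbols. The remaining gene, Il6, was at 1.67 FPKM in both 3-week libraries, a log2 ratio of 0.00 against -0.67 for Il10 and -3.31 for Il24.

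Genes whose profile over the 4 libraries lay closest to each cytokine were ranked by root mean square distance between centred log2(FPKM + 1) profiles, over 10808 other genes. Closest to Il10 were Gipc2, Cish, Socs1, Ppp2r3a and Inhba, at 0.07 to 0.17 against a median of 0.90. Closest to Il24 were Htr1b, Lta, Grp, Fgf2 and Etv5, at 0.11 to 0.32 against a median of 1.44. Lta, which encodes lymphotoxin alpha, stood at 3.85, 2.27, 29.4 and 2.50 FPKM, high in WT 3-week alone. Closest to Il10ra were Rbpj, Arl5a, Dmwd, Sema3c and Dnajb13, at 0.08 to 0.11 against a median of 0.53. Rbpj, the DNA-binding partner of Notch, stood at 43.9, 50.9, 101 and 53.0 FPKM. With 4 libraries such likeness is a description only.

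Other cells that can make IL-10 were looked for by their markers. The summed level of 7 regulatory T cell markers was 427 FPKM in WT and 382 in KO cells at 5 days, and 699 in WT and 221 in KO cells at 3 weeks, and most of it was Il2ra, which activated T cells also express. Foxp3, the defining gene of that cell type, stood at 3.61, 1.66, 0.384 and 0.133 FPKM. Of 5 compared markers of that list, 1 was at least 2-fold higher in KO at 5 days, against 2.77% of all symbols. It was Nrp1 (log2 ratio 1.06). At 3 weeks 1 was higher (Lrrc32, 1.65), against 7.97% of all symbols, and 1 lower (Il2ra, -2.06), against 8.19%. Between the times in WT, Nrp1 was higher (1.07), and Foxp3 (-1.73) and Lrrc32 (-1.96) were lower, where 5.86% of all symbols were apart. The sum of 9 myeloid markers was 4.81, 13.7, 3.61 and 28.6 FPKM and that of 7 NK and CD8 markers 7.05, 17.2, 2.74 and 14.8 FPKM, both higher in KO at both times. At 5 days 1 of 3 compared markers in each of these lists was at least 2-fold higher in KO, against 2.77% of all symbols. At 3 weeks it was all 3 compared of the 9 myeloid markers, and 2 of 3 of the NK and CD8 list, against 7.97% of all symbols. In the NK and CD8 list Eomes was among these at both times (log2 ratios 1.75 and 2.44). Eomes is also counted above among the regulators of Il10, and at 5 days it fell short of 2-fold with a pseudocount of 5. Among the myeloid markers not compared, Lyz2 did not exceed 0.154 FPKM and Csf1r 0.0130 FPKM, so the myeloid sum came from other markers. The sum of 6 mast cell and basophil markers was 14.8, 25.1, 10.5 and 18.7 FPKM, with Ms4a2 at 0 in all 4 libraries and Cpa3 as most of it at 5 days. Of its 2 compared genes, Mcpt8, a basophil protease gene, was at least 2-fold higher in KO at 5 days (log2 ratio 1.75) and at 3 weeks (2.82). The other compared gene was not, with log2 ratios of 0.55 at 5 days and -0.000 at 3 weeks. The shares of all symbols higher in KO were 2.77% and 7.97%. The part of these cells in the differences of Il10, Il24 and Il10ra was not tested.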

How the data were processed

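Per the labels' protocols, TRIzol was used for RNA and the TruSeq Stranded mRNA kit for libraries. The authors deposited FPKM values on the build mm10, with TopHat 1.3.2, Bowtie 0.12.8 and Cufflinks 2.0.2 named, per the submitters' processing notes. The sources used here do not give the annotation, the use of strand or the read layout. A file had 23746 lines. Values of 240 symbols on 702 lines were summed, leaving 23284 symbols, and 1 with an error mark in place of a value was left out. Each of the 7 genes stood on 1 line.

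Groups came from the sample titles and genotype labels, 1 library each, so no test was made and no p-value is given. Symbols with a mean of at least 1 FPKM were compared (10973, of which 164 short RNA genes), as log2((a + 1)/(b + 1)), counted at 2-fold and, for the difference between times, at 4-fold. Depth was inferred from the steps of low FPKM values of 3455 genes with 1 transcript, using a length reduced by 200 bases, where 59.6% to 62.3% of values lay within 0.05 of a whole read. Depths are approximate. Implied reads gave exact Clopper-Pearson 95% intervals, for counting error only. The depth step and the 2-fold rule were run on simulated data, drawn as whole reads of the same assumed length. Such data cannot show whether that length, and so the depth, is right for the real libraries.

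Named were Men1, the 7 genes, members of 14 gene lists with a role in the pathway, up to 6 more a list by largest size among those at least 2-fold apart, genes within 500 kb, and the 5 closest profiles of 3 genes. The genes and lists were chosen with earlier results of these data known. Alternatives were 2 other pseudocounts, 2 other filters, 3 other scalings, the highest line of a symbol, and no short RNA genes. Python 3.11.15, pandas 2.3.3, numpy 2.4.6, scipy 1.17.1 and matplotlib 3.10.9 were used.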

Additional observations from a re-analysis of the deposited data

Results flagged for a closer look

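For 3 genes the KO library lay above WT at 5 days and below it at 3 weeks, with both counting intervals off 1. Of the 10707 compared symbols with such an interval, 344 (3.21%) did the same, and 12.9% of all compared symbols had these signs, whatever the interval. The log2 ratio of KO to WT at 3 weeks minus that at 5 days was -1.18 for Il10, -1.23 for Il10ra and -0.48 for Mapkapk2. With 1 library per group the difference was not tested.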

How the results depend on the processing

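No paired analysis was possible because each group holds 1 library, and for the same reason no replicate could be left out. Under 9 alternatives, the counts of genes at least 2-fold apart between KO and WT, and of those whose genotype ratio differed 4-fold between times, did not change. Taking the highest line of a symbol or leaving out short RNA genes could not change these counts. Nor could the filter at a mean of 5 FPKM, as the lowest mean of the compared genes was 16.2 FPKM (Il10ra). With a pseudocount of 5, 0 genes rather than 1 were apart between the times in KO. With values rescaled to TPM (the same sum in each library), 4 rather than 3 were apart between the times in WT, Il19 being the added gene. Of 160 alternative log2 ratios of the 5 compared genes, 0 reversed. A move outside a band as wide as the counting interval and centred on the main value was seen for 7. The 2 other filters and the highest line of a symbol cannot change a log2 ratio of these genes. Their part of the 160 was fixed in advance. Of the differences between times, only that of Il10rb changed sign (-0.016, against 0.039 by median of ratios and 0.074 by upper-quartile scaling), and that of Il10ra moved to -0.997 with a pseudocount of 5. Gata3 at 3 weeks also fell short of 2-fold with a pseudocount of 5 (-0.96).

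Counts over all symbols moved more. At 5 days, 394 symbols were apart, 642 with a pseudocount of 0.1 and 178 with 5. At 3 weeks it was 1773, and 898 with a pseudocount of 5. Between the times in WT it was 643, 276 with a pseudocount of 5 and 421 with a mean of at least 5 FPKM, and in KO 959 and 468. For the difference between times it was 224, 398 with a pseudocount of 0.1, 132 with 5 and 128 without short RNA genes. Upper-quartile scaling moved the share of higher calls at 3 weeks from 49.3% to 59.3% and the median from -0.08 to 0.02. Il19 and Il20 lie at the limit of this depth.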
